A study of Mus musculus with 57 samples.

Results

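The 10 genes described here are 4 annexins (Anxa1, Anxa2, Anxa3 and Anxa5), 2 S100 genes (S100a10 and S100a11) and 4 tubulins (Tubb2a, Tubb2b, Tubb6 and Tuba1c), chosen by symbol from the 54307 genes of the table. They had been picked as cytoskeletal and membrane repair genes from these same livers, with each compound set against the vehicle of its route. The members' differences from vehicle are therefore given as a description, without p-values, and nothing is read from how many passed a threshold there. Comparisons that the choice did not name, of one compound directly with another and of one vehicle with another, were tested.

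Annexins are proteins that bind phospholipid membranes when calcium rises, and several of them gather at torn plasma membrane and help to reseal it. S100A10 is the usual partner of annexin A2, with which it forms a complex at the inner face of the plasma membrane, and S100A11 binds annexins A1 and A2. Alpha and beta tubulins pair to form microtubules, the tracks along which hepatocytes move vesicles and secreted proteins, and tubulin genes are further controlled through the stability of their own mRNA.

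Livers of 57 male wild-type C57BL/6JJcl mice were sequenced, 40 from mice given 1 of 7 liver toxicants and 17 from mice given a vehicle alone. Mice were 6 weeks old with 1 week of acclimatisation, were fasted for 12 h before dosing and were killed 24 h after it. Livers were perfused, and the RNA was taken from the outer part of the left lateral lobe. The labels give a dose volume of 10 µL/kg and no amount of compound. By gavage, 4 mice received alpha-naphthyl isothiocyanate (ANIT, a bile duct toxicant), 6 received acetaminophen (APAP), 7 received 4,4'-methylene dianiline (MDA, another bile duct toxicant) and 5 received thioacetamide (TAA). By intraperitoneal injection, 7 mice received carbon tetrachloride (CCl4) and 4 received galactosamine (GAL). By the tail vein, 7 mice received concanavalin A (ConA), a plant lectin that activates T cells. Vehicle mice received 0.5% methylcellulose by gavage (13 mice, called Ctrl in the labels), saline intraperitoneally (2 mice, CIP) or saline intravenously (2 mice, CIV). Corn oil is also named as a vehicle, and no mouse given it alone is among the samples analysed here, so for a compound given in oil the compound and the oil cannot be told apart. Nothing states how the mice of a group were housed or batched, so p-values measure the spread between these animals.

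Levels are in CPM, estimated counts scaled by library depth with TMM factors, which set libraries to a common level through genes that differ little. Column totals ran from 13826342 to 35075808 estimated counts. Markers of hepatocytes were abundant in every group, with a summed level of 5 markers between 19181 and 123540 CPM in single mice. The medians of that sum were 24416 CPM with CCl4 and 28865 CPM with GAL, against 59159 CPM in the intraperitoneal saline mice, and all 5 markers were lower by the test in both. Summed neutrophil markers (5 genes) had medians of 290.1 CPM with TAA, 223 CPM with ConA and 24.1 to 37.6 CPM with the other 5 compounds, against 3.61 CPM in gavage vehicle mice. Their defining marker Ly6g was at 0 in every vehicle mouse and every ANIT mouse. Kupffer cell markers (5 genes) had a median sum of 26.9 CPM with ConA and 231.6 CPM in gavage vehicle mice. Stellate cell markers (5 genes) had medians of 11.3 CPM with ANIT, 9.90 CPM with MDA, 68.3 CPM with APAP and 68.9 CPM with TAA, against 24.1 CPM in gavage vehicle mice. By the test 4 of the 5 were lower with ANIT, 5 lower with MDA and 3 higher with APAP. With TAA 1 was higher and 1 lower, so its sum does not stand for the whole list. Monocyte markers (5 genes) had a median sum of 188 CPM with GAL and 73.0 CPM in intraperitoneal saline mice. Their medians were 136 CPM with APAP, 102 CPM with TAA, 51.6 CPM with ANIT and 44.7 CPM with MDA, against 79.4 CPM in gavage vehicle mice. With ConA the median was 34.9 CPM, against 68.5 CPM in intravenous saline mice. Sinusoidal endothelial markers (5 genes) had medians of 67.4 CPM with CCl4 (111 CPM in intraperitoneal saline) and 66.5 CPM with ConA (110 CPM in intravenous saline). Cholangiocyte markers (5 genes) had medians of 137 CPM with ConA, 82.3 CPM with APAP and 83.8 CPM with TAA, against 44.4 CPM in intravenous saline and 42.1 CPM in gavage vehicle mice. In whole liver, fewer cells of a type and less RNA per cell cannot be told apart, and the part of these cell types in the results below was not tested.

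**Figure D1:**
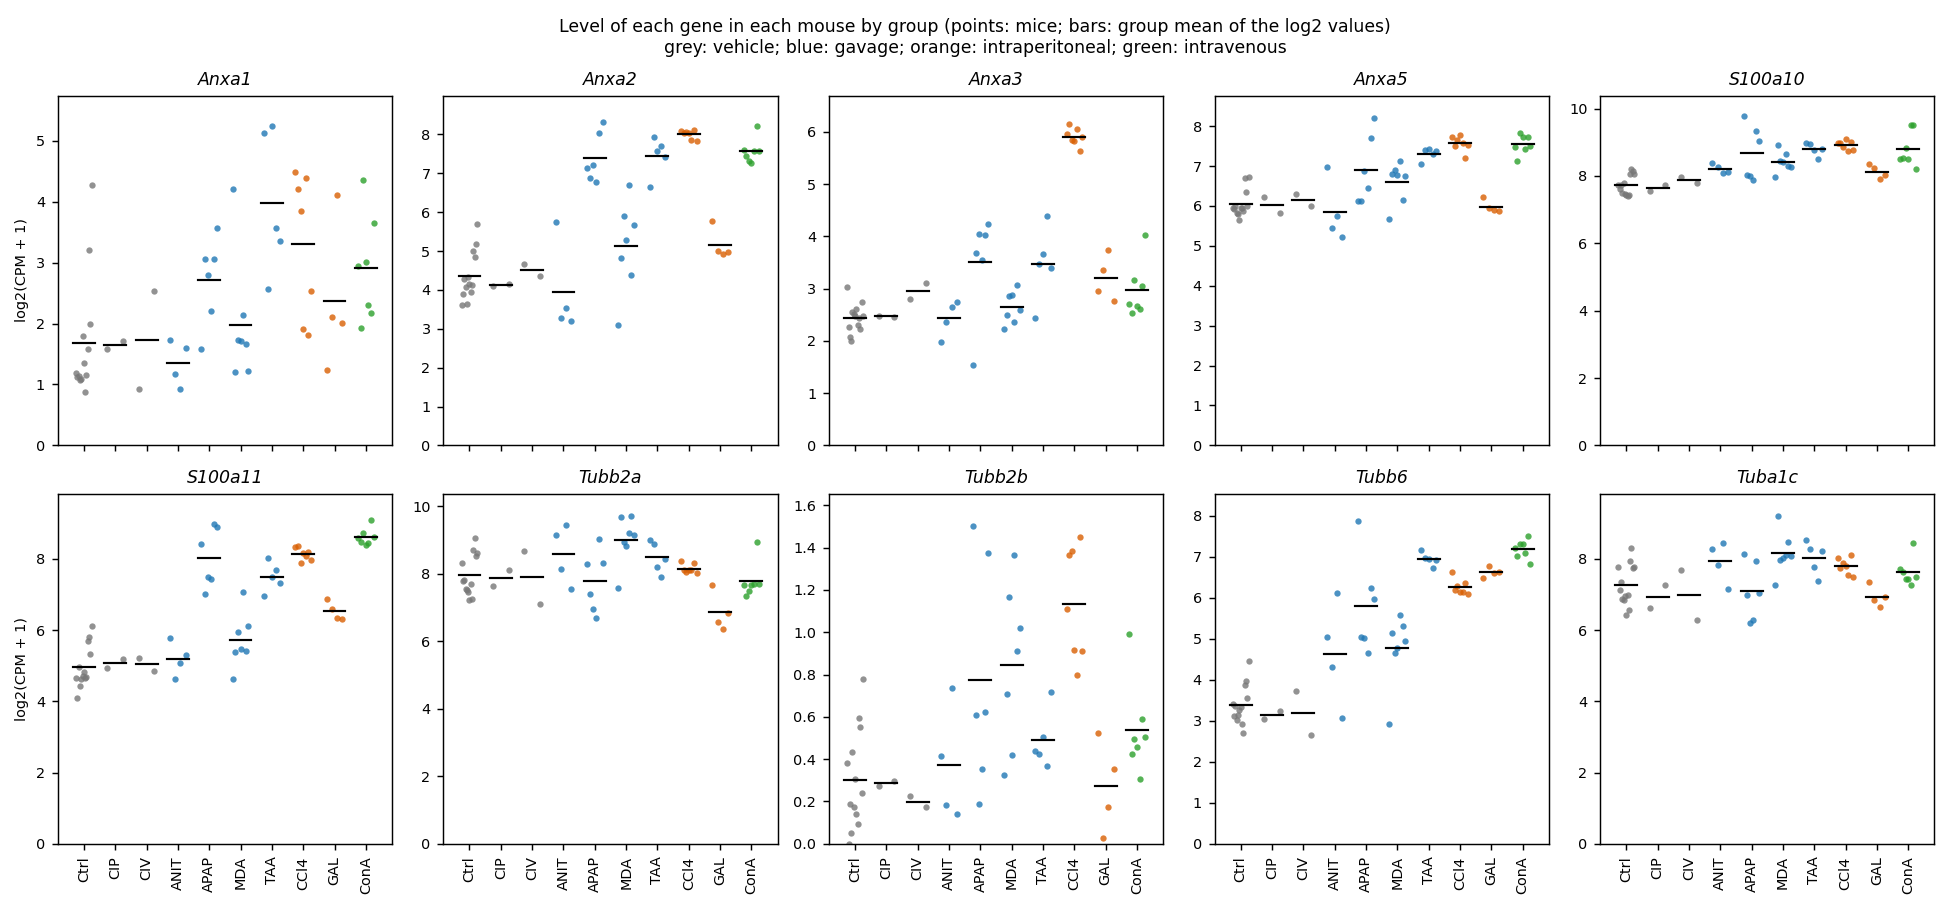
Level of each gene in each mouse, as log2(CPM + 1) on the vertical axis, by group on the horizontal axis. Points are mice, bars are group means of the log2 values, with vehicle mice in grey and the route of the compounds in colour. The CCl4 mice stand above all other mice for Anxa3, and Tubb2b stays below 2 CPM in every mouse.

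Annexin A2, the calcium-dependent membrane binder that pairs with S100A10, was low in vehicle liver and high with 4 of the compounds. Across the 13 gavage vehicle mice Anxa2 ran from 11.2 to 50.4 CPM with a median of 16.7 CPM. It was at 16.0 and 16.8 CPM in the intraperitoneal saline mice and at 24.2 and 19.5 CPM in the intravenous saline mice. With APAP the lowest, median and highest mice had 109, 144 and 316 CPM, so that no APAP mouse overlapped a vehicle mouse. The same was true of TAA, whose 5 mice had 99.2, 243, 189, 208 and 169.9 CPM. It held for CCl4 too (lowest 225, median 261 and highest 277 CPM) and for ConA (152, 188 and 298 CPM). These 4 groups overlapped one another. Single MDA mice ran from 7.58 to 103.5 CPM with a median of 37.7 CPM, across the whole vehicle range. The 4 GAL mice had 53.3, 31.1, 29.2 and 30.6 CPM, all above their 2 saline mice, though 3 of the 4 were within the range of the gavage vehicle mice. In ANIT liver 1 mouse had 52.8 CPM and the other 3 had 8.71, 10.7 and 8.15 CPM, below every gavage vehicle mouse. Against the vehicle of the route, the log2 fold changes of Anxa2 were 4.00 ± 0.14 (SE) with CCl4, 3.20 ± 0.35 with ConA, 3.11 ± 0.30 with APAP and 3.11 ± 0.29 with TAA. They were 1.13 ± 0.29 with GAL, 1.01 ± 0.36 with MDA and -0.12 ± 0.46 with ANIT. The GAL value was 1.92 with library-total scaling and 0.74 against all 17 vehicle mice. With library-total scaling the ConA value was 2.59, below APAP at 3.25 and TAA at 3.13. Without ANIT mouse 1 the value for ANIT was -1.23.

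Annexin A3, a less studied member of the family, set CCl4 apart. Its lowest, median and highest values with CCl4 were 48.9, 58.5 and 69.8 CPM. The next highest group by mean was APAP, at 12.2 ± 5.70 CPM (SD, n = 6), where mouse 1 had 1.89 CPM and the highest mouse 17.9 CPM. Thus the lowest CCl4 mouse was above the highest mouse of every other group. TAA mice had 4.42, 10.1, 11.7, 20.0 and 9.54 CPM, and GAL mice had 6.75, 9.23, 12.4 and 5.77 CPM. Gavage vehicle mice ran from 3.01 to 7.16 CPM with a median of 4.56 CPM, the intraperitoneal saline mice had 4.58 and 4.50 CPM, and the intravenous saline mice had 6.02 and 7.65 CPM. The ANIT mice (2.92, 4.14, 5.29 and 5.67 CPM) and the MDA mice (3.71 to 7.36 CPM, median 5.06 CPM) lay in or next to the vehicle range. ConA mice had a median of 5.56 CPM and ran from 4.81 to 15.2 CPM. The log2 fold change of Anxa3 was 3.75 ± 0.19 (SE) with CCl4, 1.47 ± 0.27 with APAP, 1.35 ± 0.23 with TAA and 0.92 ± 0.37 with GAL. It was 0.25 ± 0.16 with MDA and -0.00 ± 0.20 with ANIT. With ConA it was 0.18 ± 0.46, a sign that turned negative with library-total scaling, and against all 17 vehicle mice it was 0.73. The GAL value was 1.67 with library-total scaling.

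Annexin A1, known for its anti-inflammatory action in neutrophils and macrophages and also found in injured epithelium, was uneven between mice of most groups. TAA mice had 34.1, 4.93, 37.1, 10.9 and 9.27 CPM, a mean of 19.2 ± 15.1 CPM (SD, n = 5). CCl4 mice split between 3 mice at 2.51 to 4.82 CPM and 4 mice at 13.3 to 21.6 CPM. With ConA the lowest, median and highest mice had 2.80, 6.68 and 19.4 CPM, and with APAP 2.00, 6.65 and 10.9 CPM. GAL mouse 7 had 16.3 CPM and the other GAL mice 1.35, 3.30 and 3.03 CPM. MDA mouse 1 had 17.4 CPM, and the rest of its group ran from 1.30 to 3.41 CPM. ANIT mice were low, at 2.32, 1.26, 0.892 and 2.04 CPM. Of the gavage vehicle mice, number 18 had 18.4 CPM and number 16 had 8.19 CPM, against a median of 1.28 CPM. The log2 fold changes had wide errors, from -1.06 ± 0.80 (SE) with ANIT to 2.56 ± 0.65 with TAA. They were 2.49 ± 0.98 with CCl4 and 1.54 ± 0.84 with ConA, and the ConA value was 3.17 without intravenous saline mouse 8. With library-total scaling CCl4 (2.90) was above TAA (2.41). Without MDA mouse 1 the MDA value was -0.65, and without GAL mouse 7 the GAL value fell from 1.49 ± 1.04 to 0.27. With the gavage vehicle mice numbered up to 12 alone as controls, the APAP value moved from 0.92 ± 0.59 to 2.25, the MDA value from 0.35 ± 0.65 to 1.67 and the TAA value to 3.91. The ANIT value turned from -1.06 to 0.29, and it was also positive with the replicate number as a block (0.34), with the number range as a covariate (0.42) and in mice numbered 1 to 4 alone (0.41), so its direction is not settled. That choice of controls was made after the values were seen.

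Annexin A5, which binds phosphatidylserine and is best known as the reagent that stains dying cells, changed less. Gavage vehicle mice ran from 49.3 to 104.4 CPM with a median of 60.4 CPM. The 5 TAA mice (131, 169, 171, 157 and 165 CPM) were all above them. The CCl4 mice (147 to 217 CPM, median 189.6 CPM) and the ConA mice (139 to 225 CPM, median 182 CPM) were above every saline mouse, which had 56.0 to 77.7 CPM. APAP mice ran from 68.9 to 293 CPM, and MDA mice from 50.4 to 139.9 CPM. GAL mice had 73.4, 60.8, 58.5 and 57.6 CPM and did not stand apart from vehicle. ANIT mouse 1 had 125 CPM, while the other ANIT mice had 42.8, 53.0 and 36.4 CPM. In log2 terms Anxa5 differed from vehicle by 1.58 ± 0.18 (SE) with CCl4, 1.48 ± 0.24 with ConA, 1.29 ± 0.15 with TAA, 1.10 ± 0.26 with APAP and 0.59 ± 0.18 with MDA. With ANIT the value was -0.06 ± 0.26, and without ANIT mouse 1 it was -0.60. The GAL value was -0.07 ± 0.20, which became 0.69 with library-total scaling, and the ConA value was 0.87 with that scaling. ConA mouse 3 was then at 79.6 CPM, below intravenous saline mouse 7 at 84.8 CPM. TAA mouse 1 was then at 95.8 CPM, below gavage vehicle mouse 18 at 114 CPM.

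S100A11, the calcium-binding partner of annexins A1 and A2, was high in the same 4 groups as Anxa2. Gavage vehicle mice had S100a11 at 16.0 to 68.0 CPM with a median of 25.2 CPM, and the 4 saline mice had 27.8 to 36.4 CPM. With ConA the lowest, median and highest mice had 338, 385 and 551 CPM, the highest group by mean with TMM scaling. The corresponding values were 236, 286 and 330.1 CPM with CCl4, and 129.6, 259.9 and 502 CPM with APAP. The TAA mice had 124, 258, 178, 204 and 160.0 CPM. All 4 of these groups were clear of every vehicle mouse. GAL mice were intermediate at 116, 95.8, 80.8 and 78.7 CPM, also above every vehicle mouse. MDA mice ran from 23.8 to 133 CPM (median 43.3 CPM) and ANIT mice had 54.1, 23.6, 32.9 and 38.3 CPM, both overlapping vehicle. On the log2 scale S100a11 differed from vehicle by 3.69 ± 0.32 (SE) with ConA, 3.23 ± 0.31 with APAP, 3.15 ± 0.19 with CCl4 and 2.53 ± 0.26 with TAA. They were 1.51 ± 0.22 with GAL and 0.84 ± 0.29 with MDA. The ANIT value of 0.17 ± 0.32 turned negative with library-total scaling, and the GAL value was then 2.29. With that scaling the ConA value was 3.07, below CCl4 at 3.59 and APAP at 3.34, so their order depends on the scaling.

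S100A10, which holds annexin A2 at the membrane, had smaller fold changes than Anxa2 with CCl4, APAP, TAA and ConA. Gavage vehicle mice had S100a10 at 169 to 296 CPM with a median of 211 CPM. The intraperitoneal saline mice had 188 and 211 CPM and the intravenous saline mice 248 and 219.9 CPM. The 7 CCl4 mice lay between 429.6 and 551 CPM (median 500.4 CPM) and the 5 TAA mice had 499, 498, 439, 359.7 and 446 CPM, both above every vehicle mouse. ConA mice ran from 295 to 734 CPM (median 367 CPM), all above the 2 intravenous saline mice. With library-total scaling these groups overlapped, with ConA mouse 2 at 173.6 CPM and the saline mice at 270.8 and 194.8 CPM. APAP mice ran from 235 to 875 CPM (median 394 CPM), with mouse 1 the highest, and overlapped vehicle. MDA mice ran from 248 to 481 CPM (median 339 CPM). ANIT mice had 332, 306, 273 and 279 CPM, and GAL mice 328, 300.0, 237 and 261 CPM. As log2 fold changes, the differences of S100a10 from vehicle were 1.32 ± 0.13 (SE) with CCl4, 1.15 ± 0.23 with APAP, 1.10 ± 0.14 with TAA, 1.07 ± 0.39 with ConA, 0.69 ± 0.14 with MDA, 0.50 ± 0.18 with GAL and 0.46 ± 0.15 with ANIT. With library-total scaling the ConA value was 0.45 and the GAL value 1.27.

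The balance between the partners Anxa2 and S100a10 therefore differed between groups. The ratio of S100a10 to Anxa2 CPM compares the same pair of genes in every mouse, so that only its change between groups can be read. Its median was 10.6 in gavage vehicle mice, which ran from 5.29 to 19.1. The 2 intraperitoneal saline mice were at 11.7 and 12.6 and the 2 intravenous saline mice at 10.2 and 11.3. It was low with CCl4 (1.74 to 2.11, median 1.86), ConA (1.57 to 3.87, median 2.39) and TAA (1.73 to 5.03, median 2.32), where every mouse was below every vehicle mouse. APAP mice were at 1.67 to 6.26 with a median of 2.19, and APAP mouse 1 reached into the vehicle range. GAL mice were at 6.16 to 9.64 (median 8.32) and MDA mice spread from 3.91 to 32.7 (median 8.99). In ANIT mice the ratio ran from 6.29 to 35.2 with a median of 29.9. ANIT mouse 1 was the low one, and the other 3 were above every vehicle mouse. No p-value is given for this ratio, since both genes were chosen for their differences from vehicle.

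**Figure D2:**
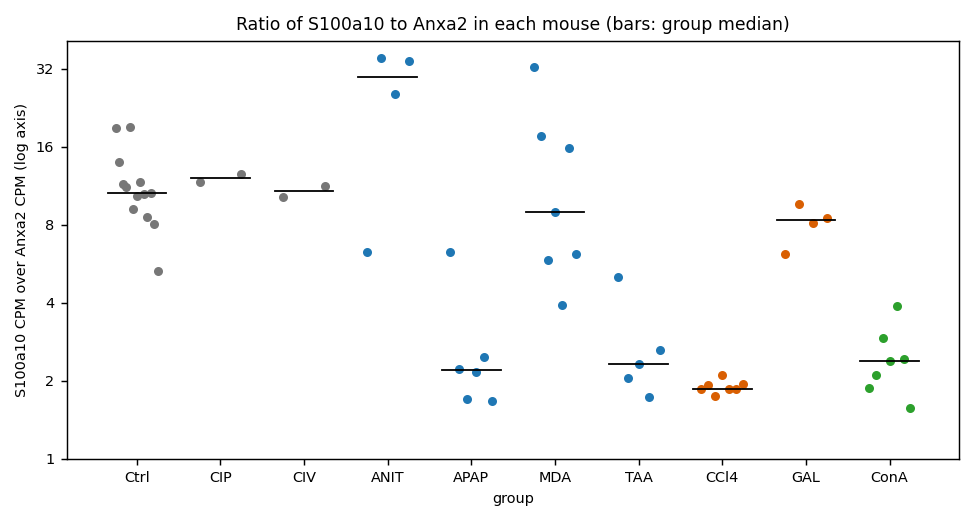
Ratio of S100a10 to Anxa2 CPM in each mouse, on a log axis, by group. Points are mice and bars are group medians. The medians are 1.86 to 2.39 with CCl4, APAP, TAA and ConA, 10.6 in gavage vehicle mice and 29.9 with ANIT.

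Promoter sequence was looked at because AP-1 and TEAD factors and SRF are known regulators of injury and cytoskeletal genes. RefSeq promoters on GRCm38.p6 were searched for 6 of the 10 genes (Anxa1, Anxa2, Anxa5, S100a11, Tubb2a and Tuba1c). Entries on 1 chromosome were left out of the search for the members, so a member outside the 6 may still have a promoter entry. That build differs from the GRCm39 build of the authors, and its coordinates are used for these sequences alone. The 250 bases before each start were searched on both strands for the AP-1 motif TGANTCA (the same on both strands), the TEAD motif GGAATG and the SRF CArG box. Anxa2 (chr9:69453433-69453682, + strand) held 1 AP-1 match, 95 bases before the start. S100a11 (chr3:93520246-93520495, + strand) held 2 AP-1 matches, 136 and 38 bases before the start. Anxa1 (chr19:20390672-20390921, - strand) held 1 TEAD match, 236 bases before the start, which reads CATTCC on the printed strand. No match overlapped another. Capitals mark the matches in the 3 sequences, which are shown because they hold the only matches among the 6.
Anxa2: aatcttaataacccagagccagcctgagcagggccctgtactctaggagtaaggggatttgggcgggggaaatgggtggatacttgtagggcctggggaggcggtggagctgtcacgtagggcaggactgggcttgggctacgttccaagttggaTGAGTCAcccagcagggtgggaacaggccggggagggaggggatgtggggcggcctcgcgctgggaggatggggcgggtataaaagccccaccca
S100a11: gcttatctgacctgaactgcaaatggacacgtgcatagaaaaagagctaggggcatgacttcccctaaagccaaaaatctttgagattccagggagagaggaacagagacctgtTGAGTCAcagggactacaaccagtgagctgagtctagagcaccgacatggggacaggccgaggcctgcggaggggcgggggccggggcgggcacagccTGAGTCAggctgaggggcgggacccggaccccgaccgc
Anxa1: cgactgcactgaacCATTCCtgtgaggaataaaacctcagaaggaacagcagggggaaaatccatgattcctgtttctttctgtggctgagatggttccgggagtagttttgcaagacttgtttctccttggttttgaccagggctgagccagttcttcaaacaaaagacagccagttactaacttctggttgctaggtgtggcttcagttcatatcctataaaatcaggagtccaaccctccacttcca
Of all 32851 promoters of the same length, 6.75% held the AP-1 motif, 12.6% the TEAD motif and 1.47% the CArG box. A match describes these letters and is neither a shown binding site nor a cause of the levels above.

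Among the tubulins, Tubb6, a beta tubulin, was low in vehicle liver. Gavage vehicle mice had Tubb6 at 5.48 to 20.9 CPM with a median of 9.04 CPM, the intraperitoneal saline mice had 7.29 and 8.36 CPM, and the intravenous saline mice had 12.3 and 5.28 CPM. ConA mice had 111, 149 and 182 CPM as lowest, median and highest. TAA mice had 143, 124, 123, 105 and 121 CPM. The 2 groups overlapped and both stood far above vehicle. GAL mice had 87.7, 109, 95.5 and 97.7 CPM. CCl4 mice ran from 66.7 to 98.8 CPM with a median of 72.3 CPM. APAP mice ran from 24.3 to 232 CPM with a median of 46.8 CPM, and mouse 1 was the one at 232 CPM. All 5 of these groups were above every vehicle mouse. ANIT mice had 31.9, 18.9, 68.6 and 7.38 CPM and MDA mice ran from 6.62 to 46.6 CPM (median 29.8 CPM), each with mice inside the vehicle range. The log2 fold changes were 4.10 ± 0.40 (SE) with ConA, 3.66 ± 0.23 with TAA, 3.64 ± 0.20 with GAL, 3.33 ± 0.19 with CCl4, 2.96 ± 0.37 with APAP, 1.65 ± 0.37 with ANIT and 1.56 ± 0.27 with MDA. Without APAP mouse 1 the APAP value was 2.19. The ConA value was 4.88 without intravenous saline mouse 7 and 3.60 without mouse 8. With library-total scaling it was 3.43 and the GAL value 4.41, so the order of these 2 depends on the scaling and on the saline mice.

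Tubb2a, a beta tubulin, had a different order of groups, with MDA the highest by mean. MDA mice ran from 189 to 835 CPM with a median of 564 CPM, mouse 1 being the lowest. ANIT mice had 563, 284, 697 and 188 CPM, and TAA mice 511, 468, 295, 239 and 346 CPM. The gavage vehicle mice ran from 148 to 533 CPM with a median of 218 CPM. No compound group was clear of its vehicle mice. CCl4 mice ran from 257 to 329 CPM, APAP mice from 103 to 522 CPM and ConA mice from 161 to 489 CPM. GAL mice had 203, 93.4, 82.1 and 113 CPM, and 1 of them was above the lower of the 2 intraperitoneal saline mice (198 and 274 CPM). The log2 fold changes were 1.07 ± 0.27 (SE) with MDA, 0.69 ± 0.34 with ANIT, 0.51 ± 0.29 with TAA, 0.31 ± 0.15 with CCl4, -0.17 ± 0.48 with ConA and -0.94 ± 0.36 with GAL. The ConA value turned to 0.88 without intravenous saline mouse 7. The GAL value was -0.13 with library-total scaling, and the CCl4 value was 0.76 with that scaling and 0.07 against all 17 vehicle mice. With APAP the value was -0.03 ± 0.33, a sign that turned positive with library-total scaling.

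Tuba1c, an alpha tubulin, had a similar order, with MDA mice at 152 to 589.5 CPM (median 270.1 CPM). TAA mice had 367, 312, 218, 165 and 298 CPM and ANIT mice had 312, 226, 350.0 and 141 CPM. Gavage vehicle mice ran from 84.1 to 317 CPM with a median of 139.8 CPM and overlapped all 3. The CCl4 mice (178 to 273 CPM) were the one group wholly above its own vehicle mice (97.5 and 152 CPM), which were only 2, and they lay within the range of the gavage vehicle mice. Values were 72.5 to 282 CPM with APAP, 153 to 346 CPM with ConA and 162, 115, 98.9 and 119.8 CPM with GAL. The log2 fold changes were 0.89 ± 0.25 (SE) with MDA, 0.87 ± 0.21 with CCl4, 0.76 ± 0.27 with TAA and 0.63 ± 0.30 with ANIT. The CCl4 value was 0.47 against all 17 vehicle mice and 1.32 with library-total scaling. Those with APAP (-0.06 ± 0.31), GAL (-0.01 ± 0.25) and ConA (0.59 ± 0.42) changed sign with library-total scaling. The ConA value was 1.51 without intravenous saline mouse 7 and 0.03 without mouse 8.

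Tubb2b, the beta tubulin closest in sequence to Tubb2a, was the scarcest member. No mouse reached 2 CPM, and vehicle mice ran from 0 to 0.714 CPM. The highest mice were 1 APAP mouse at 1.83 CPM and 1 CCl4 mouse at 1.73 CPM. Its log2 fold changes were 2.47 ± 0.49 (SE) with CCl4, 1.73 ± 0.48 with MDA, 1.67 ± 0.57 with APAP, 0.71 ± 0.55 with TAA and 0.33 ± 0.71 with ANIT. Without APAP mouse 1 the APAP value was 1.30. The ANIT value turned to -0.32 without ANIT mouse 3 and was 1.45 with the replicate number as a block, so its direction is not settled. Tubb2b passed the filter on low values in 5 of the 7 comparisons with vehicle and was not tested with GAL or ConA. Tubb2a and Tubb2b are near-identical copies, as are Tuba1c, Tuba1a and Tuba1b, so the estimates of these genes can share reads and are uncertain.

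**Figure D3:**
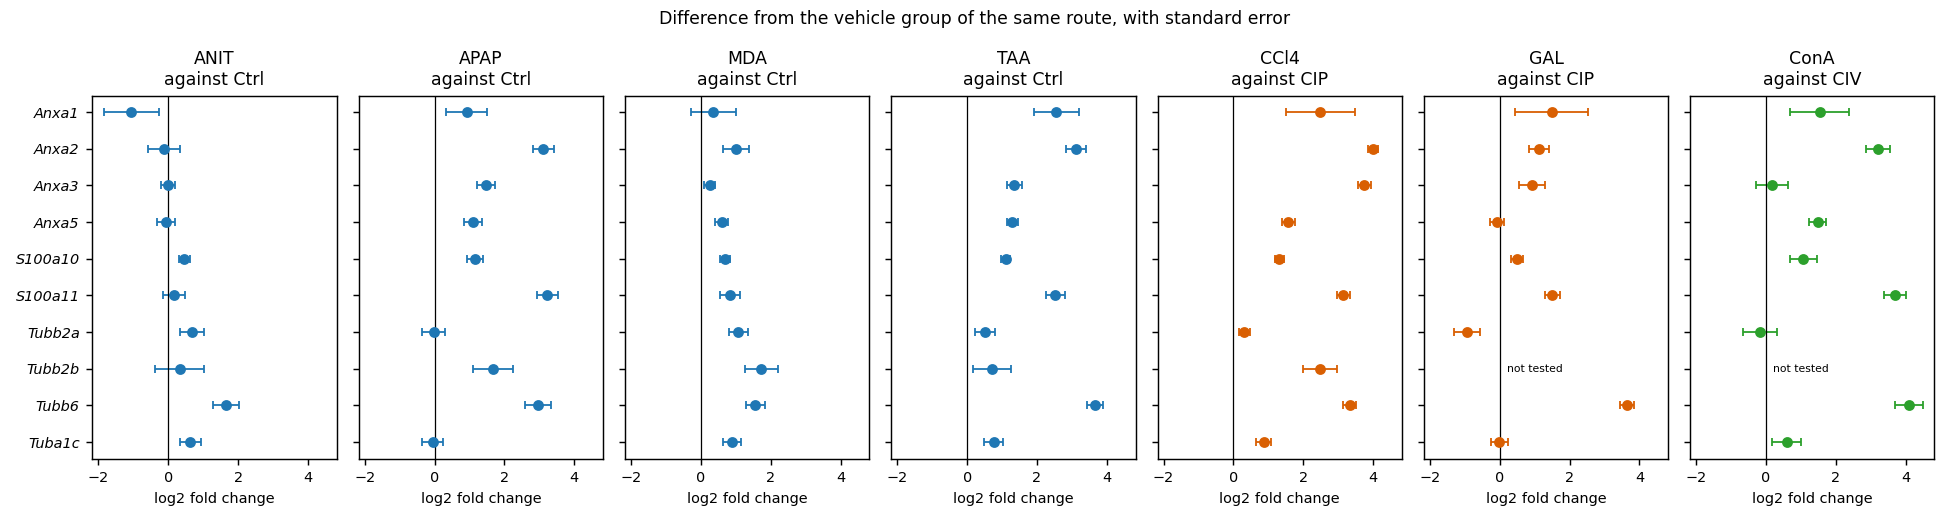
Log2 fold change of each gene on the horizontal axis, compound over the vehicle of its route, with its standard error, for the 7 compounds. Points are estimates, given as a description with no test. Tubb6 lies between 1.56 and 4.10, and Anxa2 between -0.12 and 4.00. The signs of S100a11 with ANIT, Tubb2a and Tuba1c with APAP, Anxa5 and Tuba1c with GAL, and Anxa3 and Tuba1c with ConA turn with library-total scaling.

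Across compounds, edgeR's quasi-likelihood test with Benjamini-Hochberg adjustment over all genes (adjusted p under 0.05) called members higher and called none lower with all mice in the fit. With ANIT it called 2 of 10 (28.2% of all genes were called, 14% higher), and with APAP 7 of 10 (31.8%, 17.3% higher). With MDA it called 8 of 10 (33.8%, 17.4% higher), with TAA 8 of 10 (50.5%, 26.4% higher) and with CCl4 8 of 10 (33.5%, 18.0% higher). With GAL 3 of 9 tested were called (28.5%, 12.8% higher) and with ConA 4 of 9 (34.2%, 16.8% higher). The members were chosen on these contrasts, so the counts are a description of the choice. In each comparison with vehicle in which Tubb2b was tested, the vehicle mice alone did not meet the filter on low values, so that a call of Tubb2b (APAP, MDA and CCl4) is partly set by the filter. Tested members with every treated mouse above every vehicle mouse of the route numbered 3 with APAP (2.26% of all genes), 5 with TAA (10.8%), 9 with CCl4 (22.0%), 5 with GAL (26.0%) and 5 with ConA (19.8%), and 0 with ANIT (4.02%) and MDA (1.81%). Tubb2b, not tested with ConA, also had every ConA mouse (0.237 CPM or more) above both saline mice (0.169 and 0.128 CPM). The saline groups held 2 mice each, so that this last count is easily reached there. The median log2 fold change of the members tested was 0.25 with ANIT, 1.31 with APAP, 0.86 with MDA, 1.32 with TAA, 2.48 with CCl4, 0.92 with GAL and 1.48 with ConA. The median over all genes lay between -0.01 and 0.10. With library-total scaling that median moved to 0.53 with CCl4, 0.84 with GAL, -0.56 with ConA, -0.23 with ANIT and 0.22 with APAP.

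With ANIT, the 2 members called against all 13 vehicle mice became 1 without ANIT mouse 2 and 1 without ANIT mouse 3. Without ANIT mouse 1 they became 3, of which Anxa2 (-1.23) and Anxa5 (-0.60) were lower. Against the vehicle mice numbered up to 12 alone, the ANIT log2 fold changes were 2.02 for Tubb6, 1.12 for Tubb2a, 0.99 for Tuba1c, 0.67 for S100a10 and 0.64 for S100a11.

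The gavage vehicle mice themselves did not form 1 level. Mice 15, 16, 17 and 18 had Anxa2 at 31.3, 27.9, 35.2 and 50.4 CPM, whereas the 9 mice numbered up to 12 ran from 11.2 to 19.2 CPM. S100a11 was at 50.9, 54.6, 39.3 and 68.0 CPM in those 4 mice and at 16.0 to 30.2 CPM in the 9. S100a10 was at 267.9, 296, 283 and 267 CPM against 169 to 219 CPM. These 3 annexin and S100 genes did not overlap between the mice of higher and lower number. Nor did Tubb2a (414.7, 533, 364 and 391 CPM against 148 to 321 CPM) or Tubb6 (13.7, 14.8, 10.7 and 20.9 CPM against 5.48 to 9.61 CPM). Anxa1, Anxa5 and Tuba1c had higher means in the 4 mice but overlapped, with Anxa5 at 87.6 ± 19.6 CPM (SD, n = 4) against 57.9 ± 4.20 CPM (SD, n = 9). Anxa3 was alike, at 4.58 ± 0.830 CPM against 4.49 ± 1.24 CPM. In all, 5 of the 9 members that passed the filter had every mouse numbered above 12 above every mouse numbered up to 12, where 1.32% of 13764 genes did. This division by number was known from earlier results of these data and taken up after the values were seen, so no test is given for it. Summed neutrophil markers were at 7.43 to 50.4 CPM in the 4 mice and 0.695 to 13.6 CPM in the 9, with Ly6g at 0 in all 13. Hepatocyte markers were at 51764 to 78197 CPM and 67029 to 117551 CPM. Cholangiocyte markers were at 48.5 to 105.6 CPM and 22.8 to 62.7 CPM, and monocyte markers at 39.9 to 108.7 CPM and 27.7 to 101.1 CPM. Their part in the difference was not tested.

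**Figure D4:**
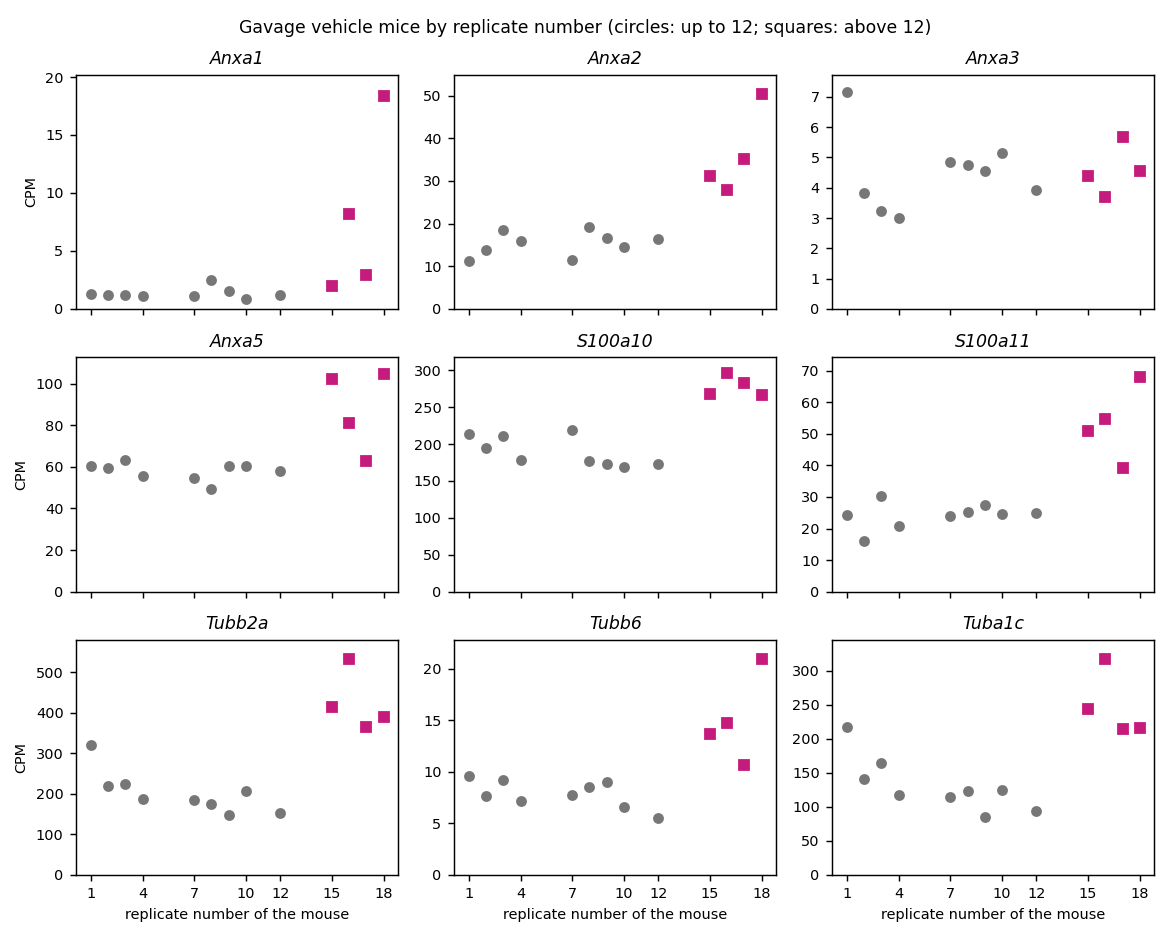
Level in CPM, from 0, of 9 members in the 13 gavage vehicle mice, by the replicate number in the labels. Circles are the mice numbered up to 12 and squares the mice numbered above 12. The squares lie above all circles for Anxa2, S100a10, S100a11, Tubb2a and Tubb6, and among them for Anxa3.

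No member was called between vehicles. Between the intraperitoneal saline mice and the gavage vehicle mice, edgeR's quasi-likelihood test called 0 of 10 members (0.0131% of all genes), with 0 at an unadjusted p under 0.05 and 0 by DESeq2 or limma. Between the intravenous saline mice and the gavage vehicle mice the count was also 0 of 10 (0.0263% of all genes), with 1 at an unadjusted p under 0.05 and 0 by DESeq2 or limma. Here Anxa3 had a log2 fold change of 0.58 (95% interval 0.10 to 1.06) and Anxa2 one of -0.00 (-0.90 to 0.89), a sign that turned with library-total scaling. The gavage vehicle mice numbered 1 to 4 differed from those with higher numbers in 0 of 9 members (2.33% of all genes), with 2 at an unadjusted p under 0.05 and 0 by DESeq2 or limma. With 2 mice in each saline group these intervals are wide, and a change of up to about the size of its interval was not detectable.

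Compounds given by the same route were compared directly, without vehicle mice, in 7 pairs, with p-values adjusted over all genes within each pair. The mice are those on which the members had been chosen against vehicle, so these tests are not independent of that choice. CCl4 against GAL, the 2 intraperitoneal compounds, differed in 8 of 9 members (42.5% of all genes were called), 7 higher with CCl4 (22.2%) and 1 lower (20.3%). Tubb2b is left out of that count, since the GAL mice, at 0.656 to 12.5 estimated counts, did not meet the filter on low values and it passed through the CCl4 mice. Anxa2 was 6.84-fold higher with CCl4, a log2 fold change of 2.77 ± 0.18 (SE; adjusted p = 5.81e-07, edgeR with Benjamini-Hochberg adjustment). Anxa3 was 6.65-fold higher (2.73 ± 0.22; adjusted p = 3.39e-06). Neither gene overlapped between the groups. Tubb6 went the other way, at -0.41 ± 0.12 on the log2 scale (adjusted p = 0.0165) with overlapping groups, and without GAL mouse 4 it no longer passed. The rest that were higher with CCl4 were S100a11 (1.55 ± 0.15), Anxa5 (1.54 ± 0.12), Tubb2a (1.16 ± 0.21), Tuba1c (0.79 ± 0.15) and S100a10 (0.73 ± 0.11). All of these 7 had every CCl4 mouse above every GAL mouse, as did 2268 of the 14708 genes tested. Anxa1 was not called, at 0.90 with a 95% interval of -0.63 to 2.43. Hepatocyte markers were low in both groups (19181 to 29208 CPM with CCl4 and 26625 to 34920 CPM with GAL), and summed neutrophil markers overlapped (9.72 to 65.4 CPM and 19.7 to 34.8 CPM). Kupffer cell markers did not overlap (78.5 to 211 CPM with CCl4 and 225 to 327 CPM with GAL), nor did sinusoidal endothelial markers (58.4 to 78.3 CPM and 94.4 to 143 CPM), and their part in the difference was not tested.

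**Figure D5:**
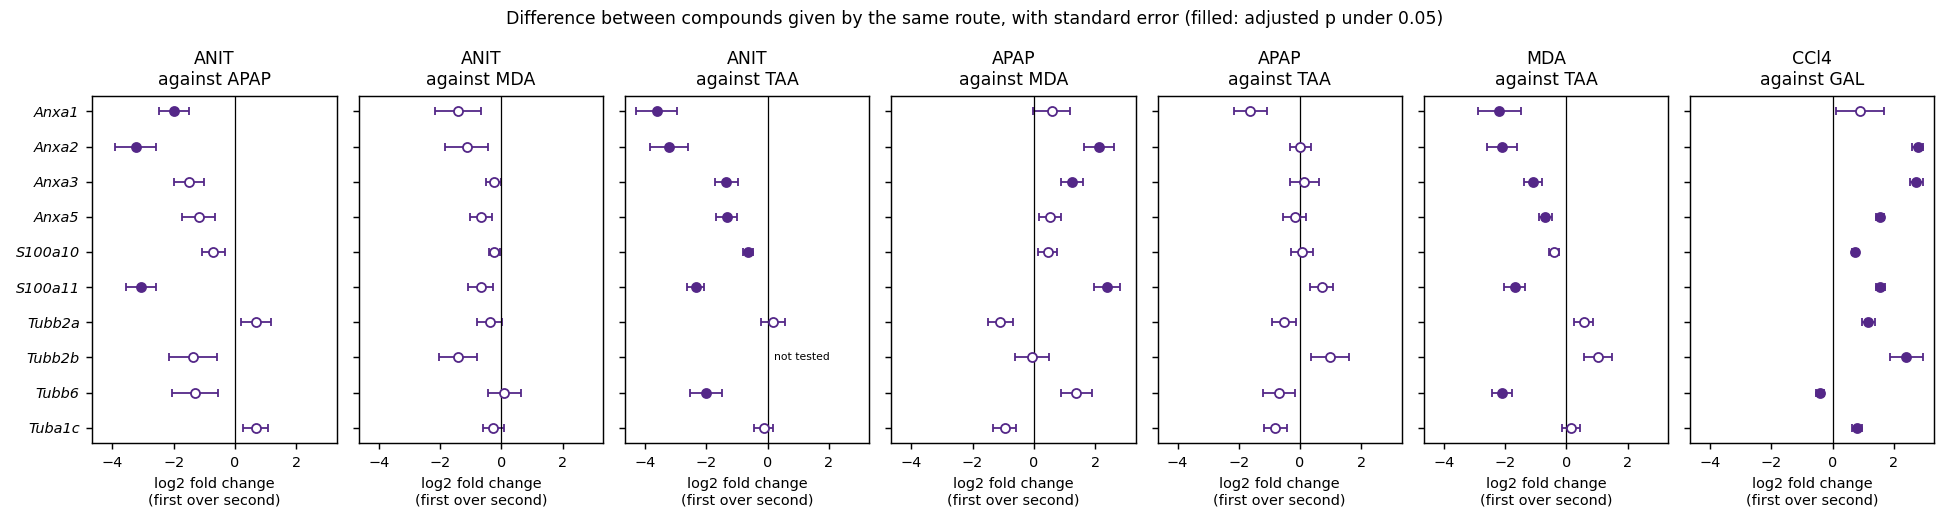
Log2 fold change of each gene on the horizontal axis between 2 compounds given by the same route, first over second, with its standard error. Filled points have an adjusted p under 0.05. CCl4 against GAL has 9 filled points, Tubb2b included, ANIT against TAA has 7, and ANIT against MDA and APAP against TAA have none.

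ANIT and TAA, both given by gavage, were compared next. All 7 called members of 9 tested were lower with ANIT (26.2% of all genes were called, 15.1% lower with ANIT). Anxa1 was 12.3-fold lower (log2 fold change -3.62 ± 0.67; adjusted p = 0.0039, edgeR with Benjamini-Hochberg adjustment), Anxa2 9.26-fold lower (-3.21 ± 0.62; adjusted p = 0.00467) and S100a11 5.09-fold lower (-2.35 ± 0.29; adjusted p = 0.000587). For these 3, and also for Tubb6, Anxa5 and S100a10, no ANIT mouse reached the lowest TAA mouse. The same was true of 1853 of the 13582 genes tested. Tubb6 (-2.01 ± 0.51), Anxa3 (-1.35 ± 0.38), Anxa5 (-1.34 ± 0.34) and S100a10 (-0.63 ± 0.16) were also lower. Tubb2a and Tuba1c were not called, at 0.17 (95% interval -0.58 to 0.92, negative with library-total scaling) and -0.12 (-0.73 to 0.48). Without ANIT mouse 2 only 3 members were called, with Tubb6, Anxa3, Anxa5 and S100a10 lost. Anxa3 was also lost without ANIT mouse 1, TAA mouse 6 or TAA mouse 7, Anxa5 without ANIT mouse 3, and S100a10 without ANIT mouse 3 or 4. Of 7 other settings, Anxa3, Anxa5 and Tubb6 were lost in 3 each, Anxa1, Anxa2 and S100a10 in 2 each and S100a11 in 1. Summed neutrophil markers ran from 13.3 to 45.6 CPM with ANIT and from 153 to 783 CPM with TAA, and stellate markers from 8.21 to 14.5 CPM and from 50.04 to 113 CPM. Cholangiocyte markers (19.2 to 35.4 CPM with ANIT and 59.3 to 102 CPM with TAA) and monocyte markers (36.5 to 77.7 CPM and 93.5 to 156 CPM) did not overlap either. Nor did B cell markers (0.927 to 3.22 CPM and 10.1 to 17.5 CPM) or sinusoidal endothelial markers, which were higher with ANIT (116 to 134 CPM and 74.9 to 106 CPM). Their part in the difference was not tested.

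MDA and TAA gave a similar picture. Of 10 members 6 were called, all lower with MDA (30.0% of all genes called, 15.8% lower with MDA). Tubb6 was 4.28-fold lower (log2 fold change -2.10 ± 0.33; adjusted p = 0.000375, edgeR with Benjamini-Hochberg adjustment), and no MDA mouse reached a TAA mouse. Anxa2 (-2.10 ± 0.48), S100a11 (-1.69 ± 0.35), Anxa1 (-2.19 ± 0.70), Anxa3 (-1.10 ± 0.29) and Anxa5 (-0.69 ± 0.21) were lower with overlapping groups. Anxa1 was lost without TAA mouse 1 or 6, and Anxa5 without TAA mouse 3, 6 or 8. Of 8 other settings, Anxa5 was lost in 4, Anxa2 and Anxa3 in 2 each, Anxa1 and S100a11 in 1 each and Tubb6 in 0. S100a10, Tubb2a, Tubb2b and Tuba1c were not called. Summed neutrophil markers were at 6.67 to 119 CPM with MDA, below every TAA mouse. So were stellate markers (6.23 to 13.8 CPM with MDA and 50.04 to 113 CPM with TAA) and B cell markers (0.780 to 2.46 CPM and 10.1 to 17.5 CPM). Their part was not tested.

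APAP stood above both bile duct toxicants in Anxa2 and S100a11. Against MDA, 3 of 10 members were called, all higher with APAP (9.43% of all genes called, 5.38% higher and 4.05% lower). They were S100a11 (5.28-fold, log2 fold change 2.40 ± 0.42; adjusted p = 0.00358, edgeR with Benjamini-Hochberg adjustment), Anxa2 (4.35-fold, 2.12 ± 0.48; adjusted p = 0.0149) and Anxa3 (2.37-fold, 1.24 ± 0.37; adjusted p = 0.0464). The groups did not overlap in Anxa2, where the highest MDA mouse (103.5 CPM) was just under the lowest APAP mouse (109 CPM). Of 8 other settings the Anxa3 call was lost in 6, and those of Anxa2 and S100a11 in 3 each, and no fit leaving out a mouse was made for this pair. Against ANIT, 3 of 10 were called, all lower with ANIT (5.98% of all genes called, 3.63% lower and 2.35% higher). These were Anxa2 (9.49-fold, -3.25 ± 0.65; adjusted p = 0.0224), S100a11 (8.42-fold, -3.07 ± 0.48; adjusted p = 0.00944) and Anxa1 (4.01-fold, -2.00 ± 0.49; adjusted p = 0.0402). Anxa1 was lost when any 1 ANIT mouse was left out, and Anxa2 without mouse 2, 3 or 4, so that S100a11 alone was called in those 3 cases. Of 7 other settings Anxa1 was lost in 5, Anxa2 in 3 and S100a11 in 2. Summed stellate markers were at 30.8 to 118 CPM with APAP, above every MDA mouse (6.23 to 13.8 CPM) and every ANIT mouse (8.21 to 14.5 CPM). Cholangiocyte markers were at 53.4 to 204 CPM with APAP, above every ANIT mouse (19.2 to 35.4 CPM) and overlapping MDA. Their part was not tested.

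The 2 hepatocyte toxicants APAP and TAA could not be separated by any member. edgeR's quasi-likelihood test called 0 of 10 (2.62% of all genes, 1.01% higher with APAP and 1.61% lower), with 1 at an unadjusted p under 0.05, 1 by DESeq2 and 0 by limma. Anxa2 had a log2 fold change of 0.01 with a 95% interval of -0.64 to 0.66. For S100a11 the value was 0.71 (-0.03 to 1.44), for Tubb6 -0.70 (-1.71 to 0.32) and for Anxa1 -1.62 (-2.70 to -0.55). The 2 bile duct toxicants ANIT and MDA were not separated either, with 0 of 10 called and 0% of 13360 genes called by edgeR's quasi-likelihood test. At an unadjusted p under 0.05 there was 1 member, and DESeq2 and limma called 0. Their intervals were wide, from -2.50 to 0.24 for Anxa2 and from -0.96 to 1.16 for Tubb6, whose value of 0.10 changed sign with library-total scaling. These p-values do not show that the compounds act alike.

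The other genes of the same families and pathways were counted from 7 lists of 64 genes, listed with earlier results of these data known. The shares of all genes called are those given above for each compound. Of the listed genes tested, edgeR's quasi-likelihood test called 14 higher and 11 lower of 57 with ANIT, 35 and 6 of 58 with APAP, 15 and 6 of 57 with MDA, and 41 and 6 of 60 with TAA. It called 30 higher and 5 lower of 60 with CCl4, 17 and 4 of 59 with GAL and 27 and 4 of 60 with ConA. Some listed genes passed the filter on low values in few comparisons, as Tubb3 in 1 (called there) and Tubb4a in 2 (called in 1). Their calls can be set in part by the filter, as for Fosl1 and Ankrd1 below. In the GAL comparison 13 were called without GAL mouse 4, against 21 with all. Counts were lower without either saline mouse, but 1 control was then left and the spread came from the GAL mice alone. With ANIT, 14 were called without ANIT mouse 3, against 25 with all.

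Among the other annexins, 8 in the list, Anxa7 was higher with 6 compounds, by a log2 fold change of up to 1.16 ± 0.09 (SE) with TAA (adjusted p = 3.35e-09, edgeR with Benjamini-Hochberg adjustment). Anxa6 was lower with 4 compounds, by a log2 fold change of -1.55 ± 0.31 with GAL (adjusted p = 0.0146). Without either saline mouse the GAL call of Anxa6 was lost, as it was with library-total scaling.

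The other tubulins were mixed. With APAP, 3 of 7 tested were higher and 3 lower, and with TAA 4 of 8 were higher and 2 lower. Tuba1a, an alpha tubulin near-identical to Tuba1c, had a log2 fold change of -1.39 ± 0.29 with ANIT (adjusted p = 0.00188, edgeR with Benjamini-Hochberg adjustment), where Tuba1c was at 0.63 ± 0.30. Tuba1b was at 1.24 ± 0.20 with TAA (adjusted p = 3.04e-05). Tuba8 was at 1.81 ± 0.23 with MDA (adjusted p = 3.99e-06) and at -1.40 ± 0.37 with APAP (adjusted p = 0.00695). Tubb5 was at 1.47 ± 0.19 with CCl4 (adjusted p = 0.000374).

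Of the other S100 genes, S100a6 was at 3.18 ± 0.42 with APAP (adjusted p = 1.28e-05, edgeR with Benjamini-Hochberg adjustment). S100a9, a neutrophil gene that is also in the marker list, was at 5.41 ± 0.72 with TAA (adjusted p = 4.43e-06) and 5.48 ± 0.48 with ConA (adjusted p = 5.39e-05). Of 7 tested, 4 were higher and 2 lower with APAP, CCl4 and GAL, 4 higher and 1 lower with TAA, 3 higher with ConA, and 1 higher and 1 lower with MDA. With ANIT 0 of 7 were called. S100a13 was lower with 5 compounds (down to -2.28) and S100a1 with 3 (down to -1.43), and both are named after their values were seen. S100a16 was tested with all 7 and called with none.

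In the membrane repair list, 7 of 12 genes were higher with APAP and 1 lower, 6 were higher with TAA and with CCl4 (2 and 0 lower), and 3 were higher and 4 lower with ANIT. With MDA 3 were higher and 2 lower, with ConA 2 higher and 1 lower, and with GAL 1 higher. Plscr1, a phospholipid scramblase that interferon raises, was higher with all 7 compounds, by log2 fold changes from 1.03 with GAL to 5.02 with ConA. Its highest levels were 200.4 to 620.1 CPM with ConA, 83.1 to 145.8 CPM with TAA and 472 CPM in 1 APAP mouse, against 5.49 to 18.4 CPM in gavage vehicle mice. Capn2, a calcium-activated protease, was at 1.47 ± 0.13 with CCl4 (adjusted p = 5.01e-05, edgeR with Benjamini-Hochberg adjustment). Pdcd6 and Cav1 were tested with all 7 and called with none.

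Actin cytoskeleton genes moved together with some of the compounds. All 10 were higher with APAP and with TAA, 9 with ConA, 6 with GAL and 5 with CCl4. With ANIT 2 were higher and 2 lower, and with MDA 3 were higher and 1 lower. Tpm4, a tropomyosin, was at 2.83 ± 0.13 with TAA (adjusted p = 6.87e-12, edgeR with Benjamini-Hochberg adjustment) and 2.03 ± 0.20 with APAP (adjusted p = 9.23e-07). Actg1, cytoplasmic gamma actin, was at 1.75 ± 0.29 with ANIT (adjusted p = 0.000265), 1.35 ± 0.18 with MDA (adjusted p = 1.09e-05) and 3.87 ± 0.34 with ConA (adjusted p = 5.52e-05). Summed stellate markers were high with APAP and TAA and low with ANIT and MDA, as given above, though with TAA 1 of the 5 was called higher and 1 lower. With ConA they had a median of 15.6 CPM against 31.2 CPM in intravenous saline mice, and their part was not tested.

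Microtubule partners, 7 genes, were called higher in 6 cases with TAA, 4 with CCl4, 3 each with ANIT, APAP and MDA, and 1 each with GAL and ConA, while 1 was lower with ANIT and 1 with MDA. Stmn1, which sequesters free tubulin, was at -1.41 ± 0.21 with ANIT (adjusted p = 0.000119, edgeR with Benjamini-Hochberg adjustment). Map4, which coats microtubules, was at 1.64 ± 0.12 with TAA (adjusted p = 1.24e-09, edgeR with Benjamini-Hochberg adjustment). Ttc5, which binds nascent tubulin and directs decay of its mRNA, was tested with all 7 compounds and called with none.

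Of the 10 factors and targets of SRF, YAP and AP-1, 9 were higher with TAA, 8 with ConA, 5 each with APAP, CCl4 and GAL, 3 with ANIT and 2 with MDA, while 1 was lower with CCl4 and 1 with ANIT. Srf was higher with all 7 compounds, by log2 fold changes from 0.61 with MDA to 1.96 with TAA. Ccn2, a YAP target, was higher with all 7, from 1.24 with ANIT to 5.30 with TAA. Fosl1, an AP-1 subunit, ran from 45.7 to 62.5 CPM with TAA, 22.7 to 41.8 CPM with CCl4, 5.96 to 18.6 CPM with ConA, 4.56 to 24.3 CPM with GAL and 1.71 to 20.1 CPM with APAP. Gavage vehicle mice had 0 to 0.237 CPM of Fosl1, so that it passed the filter on low values only through treated mice, in 5 comparisons, and its calls there are set in part by the filter. The same holds for Ankrd1, another YAP target, which is among the genes counted with TAA and CCl4 and was at 0 to 0.381 CPM in gavage vehicle mice. The GAL calls of Srf, Plscr1 and Fosl1 were each lost when either saline mouse was left out, that of Srf also without GAL mouse 4, 7 or 8, and that of Ccn2 without saline mouse 8. With ANIT, Srf was lost without ANIT mouse 3 and Ccn2 without ANIT mouse 4.

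Genes whose level followed the members were ranked by Pearson's r with the mean of the members' log2(CPM + 1), each centred on its own mean, over the 57 mice, among 12361 genes. The mice share libraries, treatments and depth between the genes, so the values are a description. The 10 most alike were Cd63 (r = 0.931), Sh3pxd2b (0.922), Ddx39 (0.901), Bco1 (0.901), Acot9 (0.896), AI506816 (0.896), Sprr1a (0.895), Plaur (0.893), Impdh1 (0.891) and Tes (0.889). Of the members themselves, each of which is part of the mean, Anxa2 had the highest r (0.942) and Tubb2a the lowest (0.278).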

How the data were processed

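Liver RNA of 57 mice was sequenced single-end from stranded mRNA libraries, per the labels' protocols. The authors deposited 1 table of estimated counts per gene, and the submitters' processing notes name Salmon 1.6.0, R 4.1.3 and GRCm39 with no roles. Over 8424 genes with 1 transcript, the smallest value above 0 fell with length (Spearman's rho -0.669), so the counts look corrected for length, which no source states. Symbols were found for 51482 of 54307 IDs.

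Values were rounded and tested in edgeR 4.0.16 (R 4.3.3): filterByExpr, TMM, two-sided quasi-likelihood tests and Benjamini-Hochberg adjustment over all genes tested, with adjusted p under 0.05 as the threshold and each fit holding the groups compared. CPM are TMM-scaled, and log2 levels use a pseudocount of 1. Standard errors are the absolute log2 fold change over the square root of the test's F statistic. The 95% intervals use the normal quantile, so they are narrow with few mice and can disagree with the test. Scripts were tested on simulated data. Python 3.11.15 with pandas 2.3.3, numpy 2.4.6 and scipy 1.17.1 was used for the summaries. Alternatives were DESeq2 1.42.0, limma 3.58.1 on log2(CPM + 1), library-total scaling, no filter, a replicate block, all 17 vehicle mice, subsets by mouse number and 89 fits leaving out 1 mouse. Same-numbered mice were not treated as pairs, since in no comparison did every correlation of their deviations exceed 0.1 (TAA against gavage vehicle 0.00211 to 0.269). Mice of different number were not correlated for reference, so whether the number marks a batch was not tested.

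Members and lists were chosen with earlier results of these data known. The members are always described. Of each related list the called gene with the largest absolute log2 fold change per compound may be named, and any gene called in 1 direction with all 7 compounds or with none.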

Additional observations from a re-analysis of the deposited data

Results flagged for a closer look

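In groups of 4 to 10 mice, 70 combinations of gene and group were examined for a highest or lowest mouse far from the others of its group, and 11 were found. Chance marks about 1 in 20. Anxa2 stood apart in ANIT mouse 1 (52.8 CPM, highest), GAL mouse 2 (53.3 CPM, highest) and ConA mouse 11 (298 CPM, highest). ConA mouse 11 was also far above its group in Tubb2a (489 CPM) and Tuba1c (346 CPM), while Tubb2b stood apart in ConA mouse 2 (0.992 CPM, highest) and Anxa3 in ConA mouse 12 (15.2 CPM, highest). MDA mouse 1 was the highest of its group in Anxa1 (17.4 CPM) and the lowest in Tubb2a (189 CPM) and Tubb6 (6.62 CPM). APAP mouse 1 was the lowest of its group in Anxa3 (1.89 CPM).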

How the results depend on the processing

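Counts of members and related genes called kept within 1.5 times their value in 140 recomputations under other settings and 121 leaving out 1 mouse, and moved further in 35 and 10, for which the cause was not tested except that subsets hold fewer mice. With library-total scaling, members called were 1 with ANIT (2 with TMM), 5 with MDA (8) and 5 with GAL (3), related genes were 16 with ANIT (25) and 35 with GAL (21), and the gene and group combinations with a mouse standing apart were 4 (11). DESeq2 called 5 members with GAL, 5 for APAP against MDA (3) and 1 for APAP against TAA (0). Against all 17 vehicle mice, 6 members and 40 related genes were called with GAL and 7 members with ConA (4). Mice numbered 1 to 4 alone gave members called of 1 with ANIT, 4 with APAP (7), 1 with MDA, 0 for ANIT against APAP (3), 1 for ANIT against TAA (7), 0 for APAP against MDA and 2 for MDA against TAA (6), and related genes of 12 with ANIT, 13 with APAP (41), 10 with MDA (21) and 30 with TAA (47). Mice numbered above 4 alone gave 4 members with MDA and 0 for APAP against MDA. With the number range as a covariate, 1 member was called for ANIT against APAP and 4 for ANIT against TAA. With the gavage vehicle mice up to number 12 alone, chosen after seeing the data, 5 members were called with ANIT, as were 3696 of 13426 genes. Anxa2 in APAP against TAA (0.01) reversed to -0.059 with limma, -0.35 with mice 1 to 4, -0.14 without TAA mouse 1 and -0.014 without TAA mouse 8, the leave-one-out range being -0.14 to 0.13.

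The mice share only numbers. With the replicate number as a block, members called were 0 with ANIT, 2 with APAP, 7 with MDA, 8 with TAA and 3 with GAL, and 0 for ANIT against APAP, ANIT against TAA and APAP against MDA. Related genes called with the block were 9 with ANIT and 7 with APAP. No paired analysis was possible because only 1 number is shared for CCl4 against saline, ConA against saline and CCl4 against GAL.

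Leaving out 1 mouse, members called ran from 1 to 3 with ANIT, 6 to 7 with APAP, 6 to 8 with MDA, 7 to 8 with TAA, 7 to 9 with CCl4, 2 to 4 with GAL and 4 to 5 with ConA. Related genes ran from 14 to 22 with ANIT, 37 to 40 with APAP, 19 to 23 with MDA, 44 to 48 with TAA, 24 to 36 with CCl4, 6 to 31 with GAL and 23 to 32 with ConA. Between compounds, members ran from 1 to 2 for ANIT against APAP, 3 to 7 for ANIT against TAA, 4 to 6 for MDA against TAA and 8 to 9 for CCl4 against GAL (Tubb2b included), with 0 in each such fit for ANIT against MDA, APAP against TAA and the vehicle comparisons. In pairs only mice of groups of up to 5 were left out, so no APAP, MDA or CCl4 mouse was, and APAP against MDA had no such fit. The ranges with CCl4, GAL and ConA against saline include fits with 1 saline mouse left, where the spread came from the treated mice alone.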
